A study of Mus musculus with 6 samples.

Results

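The clustered protocadherin genes are neighbouring adhesion genes on mouse chromosome 18, in an alpha, a beta and a gamma cluster. Members were the genes of the GENCODE vM1 annotation (assembly NCBIM37, called mm9) whose symbols start with Pcdha, Pcdhb or Pcdhg, and every peak whose summit, its highest point, lay in such a gene or within 2000 bp of it. This gave 25 genes, made up of 2 alpha, 22 beta and 1 gamma gene models. Of 579787 peaks in the series, 286 were members. Joined across samples wherever they shared at least 1 bp, they formed 78 of 170444 regions.

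The study asked how TGF-β1, a cytokine that drives kidney fibrosis, alters DNA methylation in mesangial cells, the contractile cells that support the capillaries of the glomerulus. Mouse primary mesangial cells between passages 3 and 6 were grown in medium with 25.5 mM glucose and 20% serum, which both groups shared. The 3 TGF-β1 samples were exposed for 72 h to the cytokine at 10 ng/ml and the 3 control samples were not. Methylated DNA was pulled down with an antibody and sequenced (MeDIP-seq), and a peak marks a stretch where the pulled-down reads pile up above their surroundings. The labels give no strain and do not say whether samples of a group came from separate cultures, so p-values measure only the spread between these samples. The peak lists hold no transcript values, so the cell type could not be checked by its marker genes.

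In the alpha and gamma clusters, long variable exons stand in a row, each with its own promoter, and each is spliced to the same short constant exons at the end of the cluster. A variable exon encodes the extracellular cadherin repeats, the membrane span and the first part of the tail of one protein, and the constant exons encode the shared end of the tail. Beta genes are single long exons with no constant part. In neurons each cell uses a few of these promoters, which gives it a surface identity, and DNA methylation, the insulator protein CTCF and cohesin are known to take part in that choice. The last genes of the alpha and gamma clusters, called C-type, are used more uniformly from cell to cell.

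Because vM1 joins most alpha exons into one gene model (Pcdha11, chr18:37089939-37347311) and the gamma exons into another (Pcdhgc5, chr18:37833989-38001527), variable exons were numbered from the 5′ end of each cluster. Exons in the annotation were completed with open reading frames of at least 2000 bp on the plus strand. This gave 14 alpha and 22 gamma exons beside the 22 beta genes, the same numbers as the RefSeq genes of each cluster. The first 2 gamma exons lay outside the 2000 bp limit, which left 56 variable exons, 15 of them reading frames that the annotation lacks. Gene names of alpha and gamma exons below come only from the order of genes in RefSeq and were not matched by sequence. By that order alpha exons 13 and 14 hold the places of the C-type genes Pcdhac1 and Pcdhac2, and gamma exons 20, 21 and 22 those of Pcdhgc3, Pcdhgc4 and Pcdhgc5.

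The peak caller kept 9407103 to 13291419 filtered reads per library, and depth and reads below mean this number. Every TGF-β1 sample was deeper than every control sample, so in peak counts treatment and depth cannot be told apart. The whole lists held 81473 to 105520 peaks. Outside the clusters, the share of peaks with the summit in coding sequence differed between libraries. In control replicates 1, 2 and 3 it was 6.54%, 8.65% and 9.33%, and in the corresponding TGF-β1 libraries 8.12%, 9.16% and 7.26%. Control replicate 1 and TGF-β1 replicate 3 were the lowest of their groups, and the median GC content of their peaks was also lowest, at 47.7% and 47.9% against 48.3% to 48.8% in the other samples. Regions without a peak are not shown to be unmethylated, because the lists hold only what passed the peak caller's threshold.

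Peaks in the clusters lay mostly in the variable exons, and the gamma cluster was the most evenly marked. Control replicates 1, 2 and 3 had 33, 42 and 61 member peaks and TGF-β1 replicates 1, 2 and 3 had 51, 57 and 42. The range of the control samples enclosed that of the TGF-β1 samples. Control samples averaged 45.3 ± 14.3 and TGF-β1 samples 50.0 ± 7.55 member peaks (SD, n = 3 each), and the difference of 4.67 peaks was smaller than the control SD (exact two-sided permutation test, p = 0.8, where 3 samples against 3 allow no p below 0.1). Without the 2 libraries with the lowest coding share the difference was 2.5 peaks. Divided by reads, per 1000000, it turned to -0.433 peaks, with 4.32 ± 1.06 in control and 3.89 ± 0.682 in TGF-β1 samples (exact permutation test, p = 0.7). As a share of all peaks, member peaks made up 0.0492% ± 0.0104 in control and 0.0489% ± 0.00856 in TGF-β1 samples (SD, n = 3, exact permutation test, p = 0.9).

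The alpha cluster had the widest range of peak numbers between libraries. It had 9, 13 and 23 peaks in control replicates 1, 2 and 3 and 16, 21 and 11 in TGF-β1 replicates 1, 2 and 3. The beta cluster had 4, 7 and 14 peaks in control and 10, 12 and 8 in TGF-β1 samples. In both clusters control replicate 1 was the lowest of all samples, control replicate 3 was the highest and TGF-β1 replicate 2 came next. The gamma cluster had 20, 22 and 24 peaks in control and 25, 24 and 23 in TGF-β1 samples, a much narrower range. The group means differed by 1, 1.67 and 2 peaks in alpha, beta and gamma, and the groups overlapped in each (exact permutation tests, p = 0.9, 0.7 and 0.3 for alpha, beta and gamma, and 0.9 for each after Benjamini-Hochberg adjustment over the 3). Per 1000000 reads all 3 differences turned, to -0.170, -0.00454 and -0.258 peaks. Without control replicate 1 those of alpha and beta turned to -2 and -0.5 peaks, and without TGF-β1 replicate 2 that of alpha to -1.5.

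**Figure D1:**
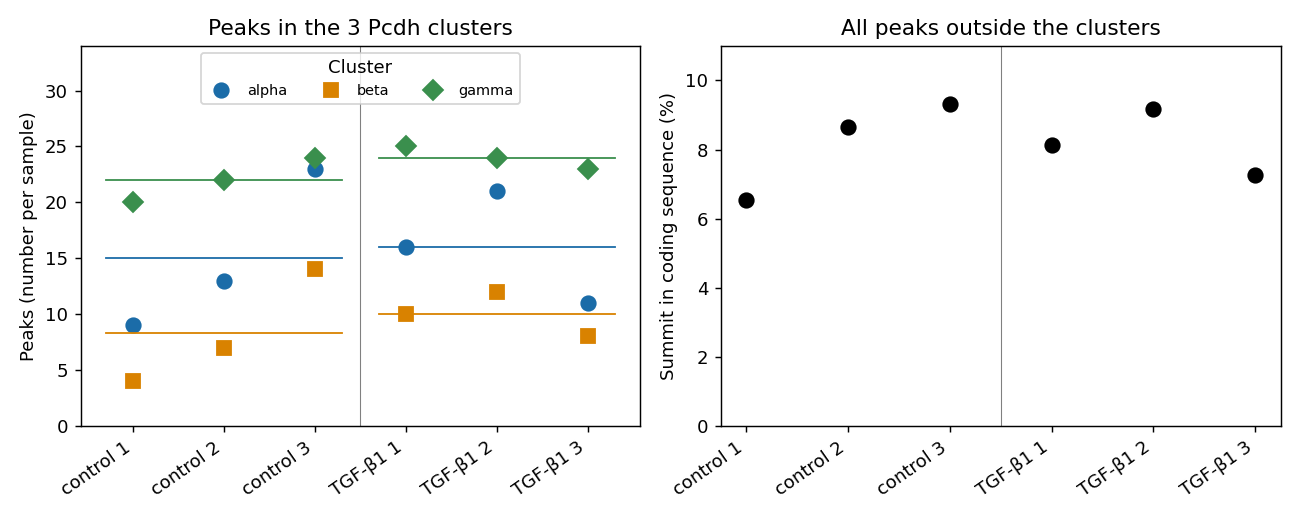
Left, number of peaks per sample in the alpha, beta and gamma clusters, with lines at the group means; right, percent of all peaks outside the clusters whose summit lies in coding sequence. Alpha runs from 9 to 23 peaks and beta from 4 to 14, both lowest in control replicate 1 and highest in control replicate 3, while gamma stays between 20 and 25.

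Across the 6 samples, chosen for description after the counts were seen, alpha peaks rose with the coding share of the other peaks (Pearson r = 0.9, permutation p = 0.0208, and Spearman rho = 0.943, permutation p = 0.0167, both exact). Beta peaks followed it as well (r = 0.849, permutation p = 0.0347, rho = 0.829, permutation p = 0.0583, both exact), and for gamma peaks the values were lower (r = 0.657, permutation p = 0.158, rho = 0.522, permutation p = 0.3, both exact). These were 3 of 6 relations computed, the others being with read depth (r = 0.274, 0.464 and 0.677 for alpha, beta and gamma, exact permutation p = 0.583, 0.346 and 0.147). After Benjamini-Hochberg adjustment over the 6, none passed 0.05 (exact permutation, adjusted p = 0.104, 0.104 and 0.237 for r with the coding share). Without control replicate 1 and TGF-β1 replicate 3, the samples farthest from the median share, r was 0.777 for alpha, 0.663 for beta and -0.178 for gamma. The difference between the clusters in this relation was not tested, and neither group has enough samples for a test of its own.

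The variable exons held 27, 34 and 48 of the peaks in control replicates 1, 2 and 3 and 43, 47 and 35 in TGF-β1 replicates 1, 2 and 3. The means were 36.3 ± 10.7 and 41.7 ± 6.11 (SD, n = 3, exact permutation test, p = 0.6, adjusted p = 1 over 4 elements). The 500 bp upstream of the variable exons, where their promoters lie, held 1 summit in all 6 samples together. It was upstream of alpha exon 8 in control replicate 2, with a pileup of 19 reads. Counted from the coding start, there were 2, the other being in the annotated 5′ untranslated part of gamma exon 17, also in control replicate 2. Introns, the spaces between genes and the flanks held the remaining 6 to 12 peaks per sample, with a mean of 8.33 in each group.

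Of the constant exons, which every alpha or gamma transcript carries, 1 held a summit. Constant exons 1 and 2 had none in either cluster, at lengths of 59 and 89 bp in both, which is shorter than a peak. Alpha constant exon 3, of 2712 bp and mostly untranslated, had none and held 1.29 CpG sites per 100 bp. The end of gamma constant exon 3 was crossed by a region with a peak in all 6 samples (chr18:38001332-38001919), where the highest pileup, the number of extended reads over one base, was 12, 14 and 17 reads in control and 19, 17 and 19 in TGF-β1 samples. Its summit lay inside the exon in control replicate 3 and past its end in the other samples.

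Variable exons with a summit numbered 25, 30 and 39 of 56 in control replicates 1, 2 and 3 and 36, 41 and 31 in TGF-β1 replicates 1, 2 and 3. The groups overlapped (31.3 ± 7.09 against 36.0 ± 5.0, SD, n = 3, exact permutation test, p = 0.4). Peaks covered 7.11%, 8.90% and 13.1% of the 164807 bp of variable exon in control and 11.4%, 12.3% and 9.99% in TGF-β1 samples (exact permutation test, p = 0.5). Over the samples, 20 exons had a summit in all 6, 26 in 1 to 5 and 10 in none. Exons listed throughout one group and absent from the other numbered 0. Among long coding exons elsewhere in the genome the same count was 1 of 1318 (0.0759%) in each direction.

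Of the 26 exons with a summit in 1 to 5 samples, 13 had one in control replicate 3 or TGF-β1 replicate 2 and in neither control replicate 1 nor TGF-β1 replicate 3. These were 6 alpha exons, 6 beta genes and 1 gamma exon. The opposite held for 2, a beta gene and a gamma exon, and 11 fitted neither pattern. The 4 libraries were set against each other after their totals were seen, so that this count only describes which exons make up the totals.

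**Figure D2:**
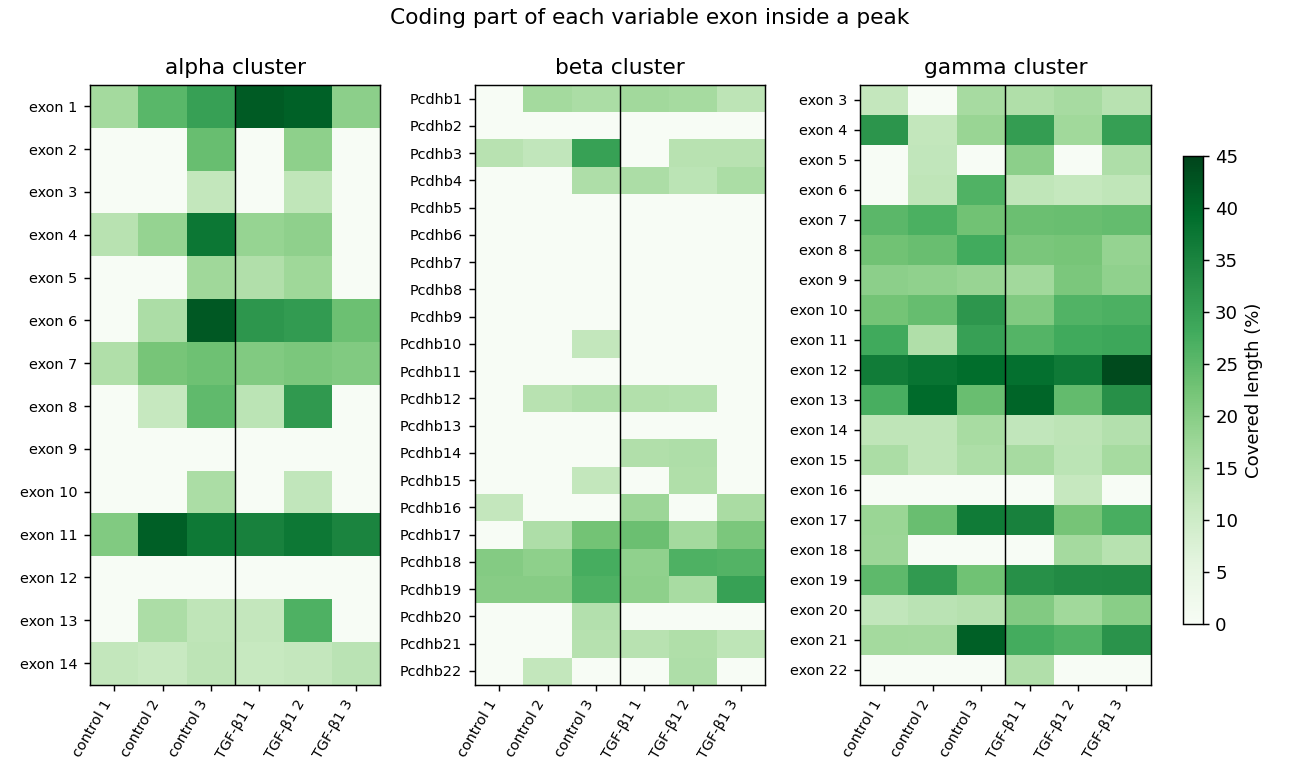
Percent of the coding part of each variable exon that lies inside a peak (colour), by exon in rows from 5′ to 3′ and by sample in columns. Gamma exons 7 to 15 are covered in all 6 samples, Pcdhb5 to Pcdhb9 in none, and alpha exons 2, 3 and 10 only in control replicate 3 and TGF-β1 replicate 2.

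In the alpha cluster, exons 1, 7, 11 and 14 had a summit in all 6 samples. Exon 1, the first of the cluster (chr18:37089939-37092326), had pileups of 21, 13 and 26 reads in control replicates 1 to 3, and 20, 22 and 29 reads in TGF-β1 replicates 1 to 3. Exon 7 had the highest pileup of these in 5 of the 6 samples, with 25, 39 and 39 reads in control and 38, 34 and 52 reads in TGF-β1 samples. Exon 11 had the widest cover of the alpha exons on average over the 6 samples, with peaks over 20.9%, 41.3% and 36.9% of its coding part in control and 35.5%, 37.2% and 34.9% in TGF-β1 samples. Control replicate 1 stood below the other 5 samples there.

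Alpha exons 9 and 12 had no peak in any sample. Over their whole coding parts they held 4.84 and 5.47 CpG sites per 100 bp against a median of 4.72 over the alpha exons, and 89.5% and 85.8% of their 49 bp reads would be unique in the genome against a median of 84.9%. Exons 2, 3 and 10 had a summit in control replicate 3 and TGF-β1 replicate 2 and in no other sample, with pileups of 12 to 28 reads.

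A stretch between alpha exons 7 and 8 that the annotation leaves as intron held 3 further regions. At chr18:37147769-37148298, with 31 CpG sites, the highest pileup was 25, 23 and 30 reads in control and 34, 36 and 34 reads in TGF-β1 samples. The groups did not overlap in these unscaled reads, as in 4 of the 23 cluster regions and 14.6% of all 41744 regions that had a peak in every sample. The fitted difference was 0.20 on the log2 scale (SE 0.193, limma adjusted p = 0.999). At chr18:37146593-37147222 it was 14, 25 and 38 reads in control and 24, 32 and 26 reads in TGF-β1 samples. The region at chr18:37140952-37141551 had no peak in control replicate 1 and pileups of 22 to 39 reads in the other 5 samples.

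In the beta cluster, Pcdhb18 and Pcdhb19 were the genes with a summit in all 6 samples. Pcdhb18 (chr18:37649119-37654159) had 15, 33 and 45 reads in control replicates 1 to 3, and 28, 37 and 32 reads in TGF-β1 replicates 1 to 3. Its lowest and highest values were both control samples. Pcdhb19 (chr18:37656651-37663781), its 3′ neighbour, had 31, 25 and 29 reads in control and 35, 24 and 45 reads in TGF-β1 samples. Pcdhb17, Pcdhb1 and Pcdhb3 followed, each with a summit in 5 samples.

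Beta genes with no peak in the coding part in any sample were Pcdhb2, Pcdhb5, Pcdhb6, Pcdhb7, Pcdhb8, Pcdhb9, Pcdhb11 and Pcdhb13, and Pcdhb5 to Pcdhb9 are neighbours. Their coding parts held 2.09 to 2.75 CpG sites per 100 bp, while the 22 beta genes ranged from 2.08 to 3.38 with a median of 2.76. Between 81.7% and 97.3% of their 49 bp reads would be unique, against a median of 92.4%. Past the 3′ end of Pcdhb6 lay a member region, chr18:37498642-37499021. It had 17 reads in control replicate 3, 21 and 16 reads in TGF-β1 replicates 1 and 2, and no peak in the other samples. Pcdhb1, the first gene, had no peak in control replicate 1 and pileups of 15 to 25 reads elsewhere. Pcdhb22, the last, had a summit in control replicate 2 with 14 reads and in TGF-β1 replicate 2 with 18 reads.

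In the gamma cluster, 14 of the 20 exons had a summit in all 6 samples and none lacked one throughout. The number of exons with a summit was 16 in each control sample and 18 in each TGF-β1 sample, so that the groups did not overlap (exact permutation test, p = 0.1, the smallest possible). Per 1000000 reads the order turned, with 1.55 ± 0.154 in control and 1.40 ± 0.0375 in TGF-β1 samples (SD, n = 3, exact permutation test, p = 0.3), and this count was singled out after the values were seen. The exons behind it were not the same in each sample, since exon 22 was called in TGF-β1 replicate 1 alone and exon 16 in TGF-β1 replicate 2 alone. Exon 18 was called in control replicate 1 and TGF-β1 replicates 2 and 3, and exon 5 in control replicate 2 and TGF-β1 replicates 1 and 3. Exon 3 lacked a summit in control replicate 2 alone and exon 6 in control replicate 1 alone. The region with the highest mean pileup over the 6 samples lay in exon 7 (chr18:37854481-37855168), with 48, 46 and 45 reads in control replicates 1 to 3, and 57, 55 and 59 reads in TGF-β1 replicates 1 to 3. Exon 12 (chr18:37891222-37892301) had 42, 42 and 47 reads in control and 52, 53 and 56 reads in TGF-β1 samples. In both exons every TGF-β1 sample was above every control sample in these unscaled reads. Of the 23 regions of the clusters with a peak in every sample, 4 were higher without overlap and 0 lower, against 14.6% and 0.309% of all 41744 such regions. Per 1000000 reads, 0 of the 23 were higher without overlap and 1 was lower. The lower one lay in gamma exon 11, with 2.91, 3.08 and 2.87 in control and 2.82, 2.37 and 2.48 in TGF-β1 samples. The share over all regions was not computed per 1000000 reads, so nothing is drawn from these counts. In exons 7 and 12 the fitted difference was 0.08 each on the log2 scale (SE 0.159, limma adjusted p = 0.999).

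Exon 17 had 41, 45 and 54 reads in control and 49, 46 and 63 reads in TGF-β1 samples, and exon 19 had 26, 44 and 48 reads in control and 49, 45 and 57 reads in TGF-β1 samples. Their groups overlapped, and the 63 reads of exon 17 were the highest pileup of any member peak. Exon 16, with 4.88 CpG sites per 100 bp and 97.1% unique reads, was called in TGF-β1 replicate 2 alone, at 44 reads. Its region ranked among the 5 tallest by mean pileup over the samples that had a peak, although the other 5 libraries list nothing there.

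Exon 3, the first gamma exon within the limit, had no summit in control replicate 2 and pileups of 15 to 26 reads in the other samples. The reading frames 5′ of it, outside the limit and not counted above, were gamma exon 1, with 1 peak of 12 reads in TGF-β1 replicate 2, and gamma exon 2. The latter had a peak in all 6 samples, with 13, 29 and 29 reads in control and 27, 39 and 23 reads in TGF-β1 samples.

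The C-type places at the ends of the alpha and gamma clusters had no summit in their upstream sequence, which was rich in CpG sites at 4 of the 5 and poor at gamma exon 22. The 500 bp before their coding start held 24, 47, 38, 28 and 6 CpG sites for alpha exons 13 and 14 and gamma exons 20, 21 and 22, against 2 to 21 (median 10) before the other 51 exons. Their coding parts did carry peaks. Alpha exon 13 had a summit in control replicates 2 and 3 and TGF-β1 replicates 1 and 2 at 13 to 14 reads. Alpha exon 14 had 16, 12 and 19 reads in control and 15, 18 and 22 reads in TGF-β1 samples.

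Gamma exon 20 had 11, 10 and 15 reads in control replicates 1 to 3, and 20, 15 and 19 reads in TGF-β1 replicates 1 to 3. Its groups touched at 15 reads. Gamma exon 21 was taller, with highest pileups of 26, 36 and 47 reads in control and 39, 45 and 36 reads in TGF-β1 samples. These came from neighbouring regions of the exon, neither of which had a peak in every sample. The values of control replicate 1 and TGF-β1 replicate 3 were from chr18:37976315-37976791 and the others from chr18:37975767-37976250. Gamma exon 22, the last, had a summit in TGF-β1 replicate 1 alone, at 26 reads.

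The position of peaks along the exon differed from cluster to cluster. The coding part of each exon was divided into 5 equal segments, numbered 5′ to 3′, and the covered length was averaged over the exons of a cluster. In gamma exons segments 2 and 3 were covered to 36.3% ± 3.72 and 35.1% ± 6.2 (SD over the 6 samples), and the others to between 4.73% and 9.78%. In alpha exons segment 3 was nearly bare, at 1.52% ± 2.32, and segment 4 the most covered, at 21.8% ± 9.79. In beta genes segment 3 led with 15.8% ± 5.37, and segment 5 had no cover in any sample. These profiles are a description, and the difference between clusters was not tested.

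In beta and gamma exons, cover did not follow CpG density along the exon. In all 3 clusters segment 4 was the richest in CpG sites, with 5.96 per 100 bp in alpha, 5.33 in beta and 5.20 in gamma exons, yet it was covered to 5.31% in beta and 9.77% in gamma exons. The well covered segments 2 and 3 of gamma exons held 3.71 and 3.03 CpG sites per 100 bp. The share of 49 bp reads that would be unique was lowest in segments 1 and 4 of alpha exons (71.2% and 74.8%) and ranged from 88.3% to 99.2% in gamma exons. The part of read uniqueness in these profiles was not tested.

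**Figure D3:**
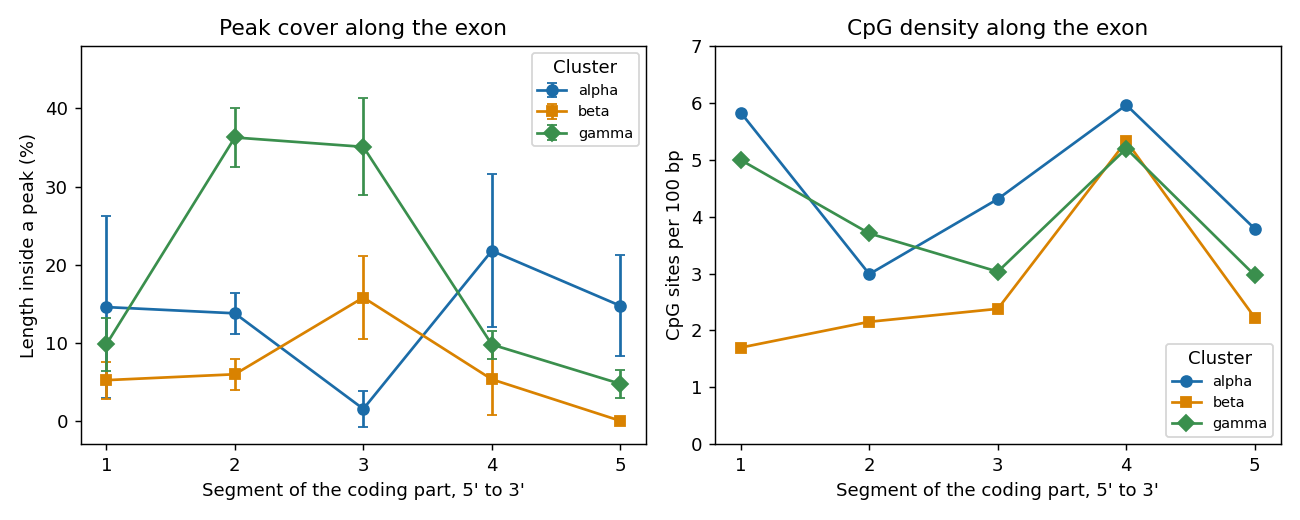
Left, percent of each segment of the coding part that lies inside a peak, averaged over the exons of a cluster (points are means over the 6 samples and bars are SD); right, CpG sites per 100 bp in the same segments. Gamma cover stands at 36.3% and 35.1% in segments 2 and 3, while CpG density is highest in segment 4 of all 3 clusters.

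In alpha exons the libraries parted in some segments and not in others. Segment 1, of 57.4% GC, was covered to 0.194% (control replicate 1) and 1.60% (TGF-β1 replicate 3), against 15.3% to 28.2% in the other 4 samples. Segment 4, of 59.1% GC, was covered to 10.4% and 14% in these libraries and to between 16.6% and 34.8% in the others. Segment 2, of 43.6% GC, was covered to between 11.1% and 18.7% in all 6 samples, and these libraries stood at 13% and 12.6%. Both libraries also had the lowest median peak GC of their groups, and its part in this was not tested.

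Among exons of one cluster, CpG density and cover went together in the beta genes and hardly in the others. Spearman's rho between CpG sites per 100 bp and mean covered length was 0.687 over the 22 beta genes, 0.0242 over the 14 alpha exons and 0.152 over the 20 gamma exons. With the share of unique 49 bp reads, rho was 0.240, -0.566 and 0.0655 in the same order. These points share libraries and similar sequences, and the values are given as a description.

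To see the exons beside others of their kind, every other coding exon of at least 1500 bp in the annotation was taken, 1318 in all. Of these, 29.4%, 39.8% and 44.2% had a summit in control replicates 1, 2 and 3 and 40.4%, 44.1% and 38.0% in TGF-β1 replicates 1, 2 and 3. Gamma exons had one in 80.0% in each control sample and 90.0% in each TGF-β1 sample, which is 16 and 18 of 20 exons. Alpha exons had one in 35.7%, 50.0% and 85.7% in control and 64.3%, 85.7% and 35.7% in TGF-β1 samples. Beta genes had one in 18.2%, 31.8% and 50.0% in control and 40.9%, 50.0% and 36.4% in TGF-β1 samples.

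Gamma exons were above the other long exons in all 6 samples and beta genes lay around them. The other long exons were also lowest in control replicate 1. A summit in all 6 samples was present in 70.0% of gamma, 28.6% of alpha, 9.09% of beta and 22.6% of the other exons. The other exons were shorter, with a median of 1992 bp against 2410.5 bp, and had fewer CpG sites, with a median of 2.16 per 100 bp against 4.01 in gamma, 4.72 in alpha and 2.76 in beta exons. These differences in length and CpG content move with the comparison, and no test was made of it.

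**Figure D4:**
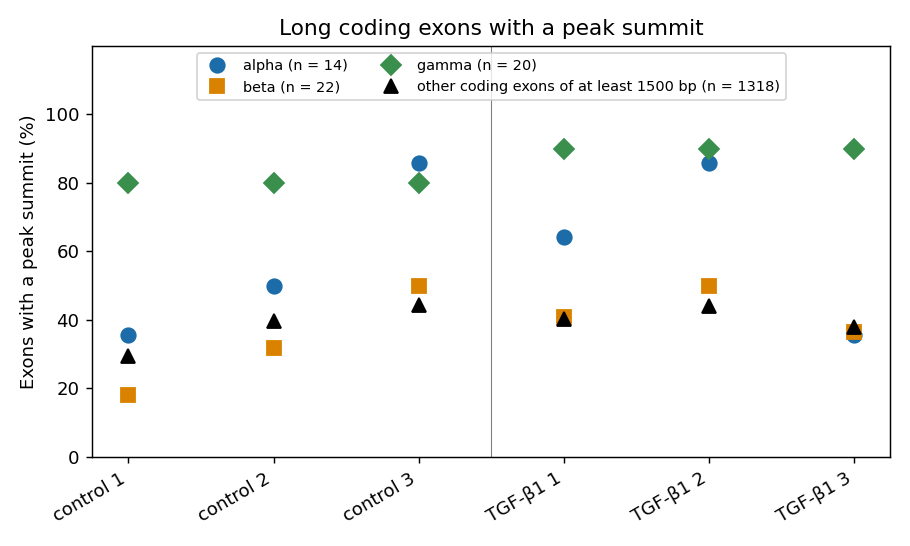
Percent of exons with a peak summit in each sample, for alpha, beta and gamma variable exons and for the 1318 other coding exons of at least 1500 bp. Gamma stands at 80.0% or 90.0%, while alpha runs from 35.7% to 85.7% and beta from 18.2% to 50.0%, and the other exons from 29.4% to 44.2%.

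Peak height in the clusters was compared where all 6 samples had a peak, which kept 23 of the 78 regions (29.5%, against 24.5% of all regions), 15 of them gamma, 6 alpha and 2 beta. Regions were therefore those called in every library, and regions that one group lost could not enter. The median over the 23 of the highest pileup per 1000000 reads was 2.42, 2.66 and 2.78 in control replicates 1, 2 and 3 and 2.20, 2.37 and 2.56 in TGF-β1 replicates 1, 2 and 3. The means were 2.62 ± 0.183 and 2.38 ± 0.181 (SD, n = 3, exact permutation test, p = 0.2). In unscaled reads the medians were 25, 25 and 32 in control and 28, 30 and 34 in TGF-β1 samples (exact permutation test, p = 0.3), so that the direction depended on the division by reads. The median over all regions called in 6 samples moved in the same direction per 1000000 reads, from 2.34 ± 0.108 to 2.20 ± 0.0600. Fold enrichment over the local background had a median over all member peaks of 5.46, 5.48 and 6.42 in control and 5.79, 6.12 and 6.00 in TGF-β1 samples, while over all peaks of the series the medians ran from 6.10 to 6.33.

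Region by region, none of the 23 passed the test between the groups. The test was limma on log2 pileup, with samples centred on their medians, fitted to all 41744 regions called in 6 samples. At an adjusted p below 0.05 it called 0 of these regions (0.0%) and 0 of the 23. At an unadjusted p below 0.05 it called 1744 regions (4.18%) and again 0 of the 23. Fold enrichment in place of pileup gave 1 called region in the genome, which was no member. Of the 23, 13 had a difference above 0 and 10 below, with a median of 0.01 on the log2 scale, against -0.005 over all regions. Divided by reads instead, 6 were above 0 and 17 below, when the median of all regions moved to -0.10.

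The largest positive difference was that of gamma exon 20, the place of Pcdhgc3 (0.37 on the log2 scale, SE 0.20, limma unadjusted p = 0.074, adjusted p = 0.999). Gamma exon 10 came next with 0.23 (SE 0.209), on 23, 17 and 27 reads in control and 31, 29 and 30 reads in TGF-β1 samples. The region at chr18:37147769-37148298, given above, followed with 0.20 (SE 0.193). The largest negative difference was that of a region in gamma exon 13, chr18:37897127-37897960 (-0.31, SE 0.246, limma unadjusted p = 0.211, adjusted p = 0.999). It rested on 17, 20 and 32 reads in control and 15, 30 and 20 reads in TGF-β1 samples. With regions joined up to 200 bp apart, the region there had -0.16, and that of gamma exon 9, at -0.18, was the most negative. In the main fit gamma exon 9 (-0.18, SE 0.234), a region of alpha exon 11 at chr18:37170770-37171476 (-0.16, SE 0.231) and gamma exon 15 (-0.13, SE 0.194) followed. The other region of alpha exon 11 had no peak in control replicate 1 and did not enter. Where regions with a peak in at least 3 samples were fitted, its difference was 0.11 (SE 0.525).

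**Figure D5:**
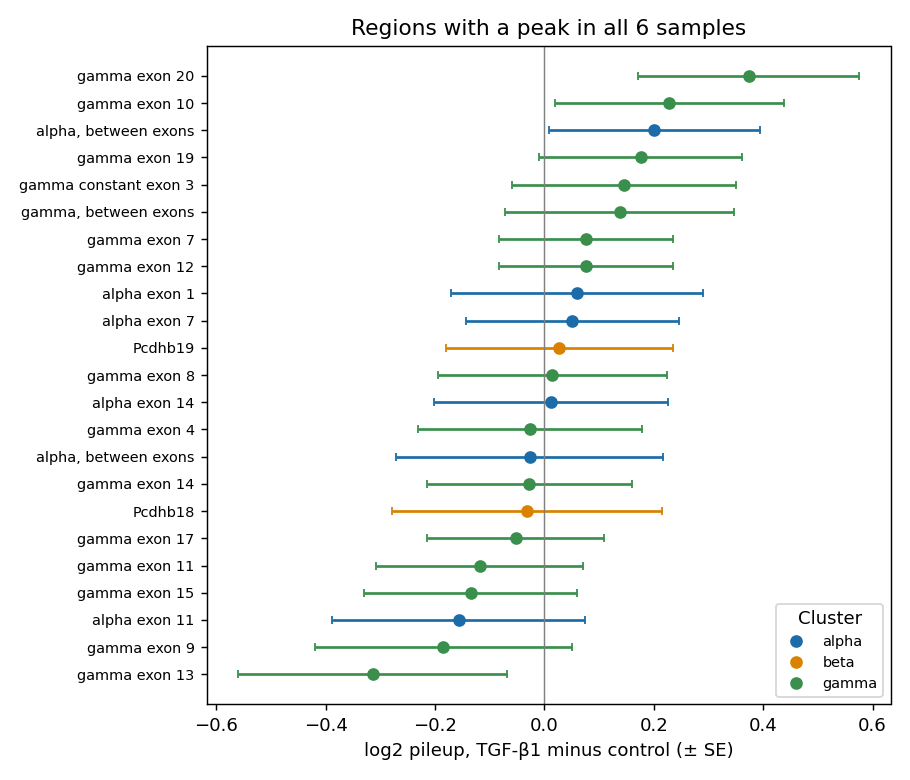
Difference in log2 pileup, TGF-β1 minus control, with its standard error, for the 23 regions that every sample shares, coloured by cluster. Values run from -0.31 in a region of gamma exon 13 to 0.37 in gamma exon 20, and 13 lie above 0.

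Regions called in all 3 TGF-β1 samples and no control sample numbered 0 of 78, and the reverse also 0, while 0.948% and 0.233% of all regions did so. Regions called in a single sample were 17 of 78 (21.8%, against 27.3% of all regions), 8 of them in control replicate 3. The 78 regions were 284 to 1128 bp long with a median of 440 bp. They held a median of 3.76 CpG sites per 100 bp, against 2.37 over all regions.

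Other protocadherins lie outside the clusters as separate genes. Of 13 listed, 12 were found in the annotation. Pcdh18 had 2 peaks in each control sample and 3 in each TGF-β1 sample, so that 1 of the 12 was higher without overlap, 0 were lower and 11 overlapped or had no peak. Over the 16694 protein-coding genes with a peak, 3.88% were higher without overlap and 0.347% lower. Pcdh15, a long gene whose product joins the stereocilia of hair cells, had 35, 39 and 40 peaks in control and 33, 37 and 37 in TGF-β1 samples, and Pcdh8 and Pcdh20 had none in any sample.

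Genes whose products act on the clusters were listed as well, among them Ctcf, cohesin genes and Smchd1, a chromatin protein that silences the clusters. Of 14, 1 was higher without overlap, 1 was lower and 12 overlapped or had no peak, where 3.88% and 0.347% of all genes with a peak were higher and lower without overlap. Smc1a had no peak in any sample, so it is among the 14 but not among the genes behind those shares. Smc3, a cohesin subunit, had 4, 3 and 3 peaks in control replicates 1, 2 and 3 and 5 in each TGF-β1 sample. Stag2, another cohesin subunit, had 2 peaks in each control sample and 1 in each TGF-β1 sample. Ctcf had 4 or 5 peaks in every sample and Smchd1 between 10 and 14. Of 4 signalling partners of the protocadherin tail (Ptk2, Ptk2b, Ret and Wasf1), all 4 overlapped between the groups.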

How the data were processed

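MeDIP-seq peak lists of 6 samples were used. Per the labels and file headers, the authors mapped reads with BWA to mm9 and called peaks in each sample alone with MACS2 2.1.0.20150731, with no input sample, a q cutoff of 0.01, a regional background window of 10000 bp and a tag size of 49 bp. In the deposited lists, pileup is a signal that counts extended reads at the summit without scaling. Deposited fold enrichment is a ratio, pileup over local background, with a small constant added to both. The authors give p and q as -log10 values, and q served in an alternative. Precision depends on the 9407103 to 13291419 reads that the peak caller kept in each library after filtering.

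Members, exon lists and gene lists were chosen with earlier results of these data known. The named exons and genes were the constant exons, C-type places, exons with no summit, regions called in one group, the 5 tallest regions, per direction the 3 regions of smallest limma p, and the first and last gene of each cluster. Other genes and exons were named after their values were seen. A peak was assigned by its summit to a constant exon, then a variable exon, then the 500 bp upstream, then the rest. Gene order came from RefSeq (GRCm38.p6), from which no coordinates were taken. CpG sites and unique 49 bp stretches were counted on NCBIM37. Sample values were compared by exact two-sided permutation over 20 assignments (smallest p 0.1), and regions by limma 3.58.1 in R 4.3.3 on log2 of the highest pileup, with Benjamini-Hochberg adjustment over all regions. No pseudocount was needed in the main fit, since only regions with a peak in all samples entered. In an alternative, regions with a peak in at least 3 samples entered, and a missing peak took the lowest pileup of its sample. At an adjusted p below 0.05 that limma fit called 0 of 98681 regions and 0 of 50 members. The limma step was tested on simulated data of 41744 regions and recovered 200 of 200 regions changed by 2 on the log2 scale, with 15 false calls. The simulated noise was independent, with the same SD in every region. Fitted differences of the 23 cluster regions ran only from -0.31 to 0.37, and the recovery says nothing of changes of that size. Other calculations used Python 3.11.15. Alternatives were stricter q or fold enrichment, assignment by any overlap, division by reads, other windows and joins, and fold enrichment in place of pileup. Further ones were regions with a peak in at least 3 samples, omission of single samples, and a block for replicate number. Same-numbered samples did not deviate together (r = -0.0464, 0.0432 and -0.130 over 41744 regions), so the numbers were not taken as pairs.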

Additional observations from a re-analysis of the deposited data

How the results depend on the processing

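Of 171 recomputed values, 130 kept their direction and side of the threshold. The permutation and sign-flip tests between the groups allow no p below 0.1 and 0.25, so that their side of 0.05 could not change and says nothing of stability. Values below are TGF-β1 minus control. Divided by reads (per 1000000), the direction turned for all member peaks (-0.433), alpha (-0.170), beta (-0.00454), gamma (-0.258) and variable exon peaks (-0.227), exons with a peak (-0.201) and percent covered (-0.0526), and peaks in the rest went from 0 to -0.141. The share of all peaks turned to 0.00136 percentage points with -log10 q held to 5 or more and 0.00143 with fold enrichment held to 5 or more. Peaks in the rest became 0.333 and 0.667 under these, -0.333 by any overlap and, in a comparison added after seeing the data, -0.5 without the 2 libraries of lowest coding share. Upstream and constant exon peaks became 0 by any overlap and with fold enrichment of 5 or more. Pileup per 1000000 reads (-0.245) turned to 3.33 as deposited and 0.201 with fold enrichment. Other exons of at least 1000 bp had a summit in 32.9% against 39.3%. Leaving out one sample, the difference ran from -1.5 to 12.5 for member peaks (-1.5 without control replicate 1), -2 to 5 for alpha, -0.5 to 4.5 for beta, 1 to 3 for gamma, 0.667 to 11.2 for variable exon, -1.17 to 1.83 for the rest, -0.5 to 0 for upstream and constant exon peaks, and -0.00469 to 0.00542 for the share. In the same runs 0 to 1 of the 23 regions had an unadjusted limma p below 0.05. These were in Pcdhb18 without control replicate 1, gamma exon 20 without control replicate 3 and gamma exon 13 without TGF-β1 replicate 2. Of all 41744 regions, 2477, 2270 and 1506 were below 0.05 in these runs, in that order. With the replicate number as a block, member peaks differed by 4.67 (exact sign-flip test, p = 1), and the limma calls of members stayed at 0. The relations to the coding share were also recomputed among peaks with -log10 q of 5 or more, likewise added after seeing the data. Alpha and beta peaks had r = 0.909 and 0.921 (exact permutation, adjusted p = 0.0417 each, against 0.104 each with all peaks). By rank, rho was 0.943 for both (exact permutation, adjusted p = 0.05 each, not below 0.05). Without control replicate 1 and TGF-β1 replicate 3, r was 0.758 for alpha and 0.757 for beta. With read depth in place of the coding share, and without control replicates 1 and 2, r was -0.91 for alpha and -0.86 for beta. The causes were not tested. Depth limits what a peak list can show, since a region just under the threshold in a shallower library is not listed.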
